A study of Mus musculus with 80 samples.

Results

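The genes of cholesterol synthesis, and of its control by the transcription factor SREBP2, were followed in livers of female Balb-C mice given PFESA-BP2 (Nafion byproduct 2), a perfluorinated alkyl substance. The set comprised 27 genes taken by symbol: 21 enzymes, 4 regulators and 2 genes of sterol transport and receptor turnover. They were drawn from knowledge of the pathway, but chosen with earlier results of these data known. Their counts and medians beside those of all genes are therefore description, not independent support. All 27 were found among the 22103 rows of the deposited table, and all 27 were among the 15197 genes kept by the filter on low counts. The study dosed 20 individual mice of 10 to 12 weeks by gavage on 7 consecutive days. The 5 groups of 4 mice received 0, 0.03, 0.3, 3.0 or 6.0 mg/kg-day, and the mice carried no engineered allele in the labels. The vehicle is unsettled, being DMSO in the titles of the control samples and deionized water in the account of the dosing. Each mouse gave 1 library, numbered here as in the labels: 1 to 4 for controls, 9 to 12 for 0.03, 13 to 16 for 0.3, 17 to 20 for 3.0 and 21 to 24 for 6.0 mg/kg-day. Levels are in CPM, the usual scaling of counts to the library total, here after TMM adjustment, and each mean has its SD (n = 4 mice). Changes are log2 fold changes with a standard error (SE) from edgeR's quasi-likelihood test, adjusted over all 15197 genes by the Benjamini-Hochberg method. An adjusted p under 0.05 counted as passing, and all 4 dose comparisons share the same 4 control mice.

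Cholesterol is built from acetyl-CoA through mevalonate, isoprenoid diphosphates, squalene and lanosterol, and the liver is a main site of this synthesis. The membrane protein SCAP carries the SREBP2 precursor from the endoplasmic reticulum to the Golgi, where proteases release the part that enters the nucleus and switches on the genes of the pathway. When sterols are plentiful the proteins INSIG1 and INSIG2 hold SCAP back in the endoplasmic reticulum. SREBP2 binds sterol regulatory elements, commonly beside sites for the factors NF-Y and Sp1.

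The libraries held 13086779 to 21467012 counts. In every group 1 library stood apart from the other 3 on the first component of the within-group variation (libraries 3, 11, 15, 19 and 23), and calls that changed without them are given with the results. In each group that library held the same place in the numbering, and the reason it stood apart was not tested. Of the members, Acat2, Pmvk, Fdft1 and Nsdhl were lowest in that library in all 5 groups, and Hsd17b7, Sc5d and Stard4 were highest in it in all 5. Hepatocyte markers were abundant throughout, with 8 genes summing to 118100 to 163200 CPM in controls. That sum ran from 82560 to 118200 CPM at 3.0 and from 74860 to 104400 CPM at 6.0 mg/kg-day. By the test 3 of the 8 markers were lower at 6.0, where 11.2% of all genes tested passed as lower. Alb made up most of the sum, with means of 126700 CPM in controls, 87900 at 3.0 and 73800 at 6.0. The 12 genes of cell division, all of which passed as higher at 3.0 and at 6.0 mg/kg-day, summed to 14.96 to 18.81 CPM in controls, 69.45 to 121.4 CPM at 3.0 and 156.9 to 341.9 CPM at 6.0, the last value in library 22. Of 5 lymphocyte markers, which summed to 26.62 CPM in library 22 and to at most 4.84 CPM in controls, Cd3e (10.3 CPM) and Cd3g (14.1 CPM) made up most of that sum. Ms4a1 and Nkg7 were at 0.907 and 0.252 CPM there, below their control means of 1.08 and 0.463 CPM. Cd79a was at 1.11 CPM in library 22, above its control mean of 0.476 CPM, and of the list only Cd3g passed at 6.0. Of 3 adipocyte markers 2 were in the table. Cidec rose by 2.09 ± 0.28 at 6.0 (adjusted p = 1.42e-05), from 0.95 ± 0.334 to 4.07 ± 1.36 CPM, while Adipoq was at 0.11 CPM in controls and 0.0144 CPM at 6.0 and was too low to be tested. Of 6 Kupffer cell, 5 endothelial and 5 stellate markers 1 of each passed as lower at 6.0, namely Csf1r (-0.56, adjusted p = 0.000366), Stab2 (-0.71, adjusted p = 0.000317) and Reln (-0.79, adjusted p = 0.000722). These shares are near the 11.2% of all genes that passed as lower, so they are no result about these lists. Changes were above 0 for 4 of the 6 Kupffer cell, 2 of the 5 endothelial and 1 of the 5 stellate markers. The medians were 0.08, -0.26 and -0.51. The endothelial marker Lyve1 passed as higher (1.77, adjusted p = 2.43e-05). Of 4 cholangiocyte markers 0 passed by edgeR, with 2 at an unadjusted p under 0.05, beside 5248 of all 15197 genes. The marker sums ran from 275.3 to 334.5 CPM in controls and 215.4 to 477.5 CPM at 6.0 for Kupffer cells, from 178.8 to 218.5 and 142.2 to 202.7 for endothelium, and from 287.9 to 324.5 and 173.5 to 341.8 for stellate cells. The part of these shifts in the results for cholesterol genes was not tested. In whole liver RNA, fewer cells of a type and less RNA per cell cannot be told apart.

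The enzymes of the pathway rose nearly throughout at the top dose, and Insig2, which encodes a restraint on it, had the largest fold change of the set. At 6.0 mg/kg-day 20 of the 27 genes passed as higher and 2 as lower, where 11.2% of all genes tested passed as higher and 11.2% as lower. Of the 21 enzymes 18 rose and 0 fell, and the exceptions were Ggps1, Tm7sf2 and Ebp. Insig2 rose by 3.62-fold, and Idi1, Fdps, Sqle, Mvd and Pmvk rose by 2.57-fold to 2.66-fold. Scap and Srebf2 were the genes that fell. The median change over the 27 was 0.84 (log2), beside -0.02 over all genes tested. For 17 of them every mouse at 6.0 lay above every control and for 1, Scap, below, where 9.68% of all genes lay wholly above and 8.86% wholly below. Without the libraries apart 18 passed as higher, Aacs and Dhcr7 being lost. With only the controls and the 6.0 mg/kg-day mice in the fit 16 passed as higher and 1 as lower, and the calls lost were Acat2, Aacs, Sc5d, Dhcr7 and Srebf2.

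Summed over the 21 enzymes, the level was 2147 ± 158 CPM in controls, 1895 ± 271 at 0.03, 2661 ± 260 at 0.3, 3449 ± 426 at 3.0 and 4021 ± 422 CPM at 6.0 mg/kg-day. The control mice lay between 2043 and 2381 CPM and the mice at 6.0 between 3597 and 4605 CPM, so these groups were separate. At 0.3 mg/kg-day the lowest mouse, at 2433 CPM, was also above the highest control. The most abundant genes weigh most in the sum. Taken singly, 4 of the 21 enzymes lay wholly above the controls at 0.3, beside 3.71% of all genes tested. By edgeR 0 of the 21 passed at that dose, beside 0.138% of all genes as higher. The summed level at 0.03 mg/kg-day overlapped that of the controls, with its lowest value of 1561 CPM in library 12. No library at 3.0 was below 3113 CPM, and the highest there was library 20 at 4022 CPM.

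**Figure D1:**
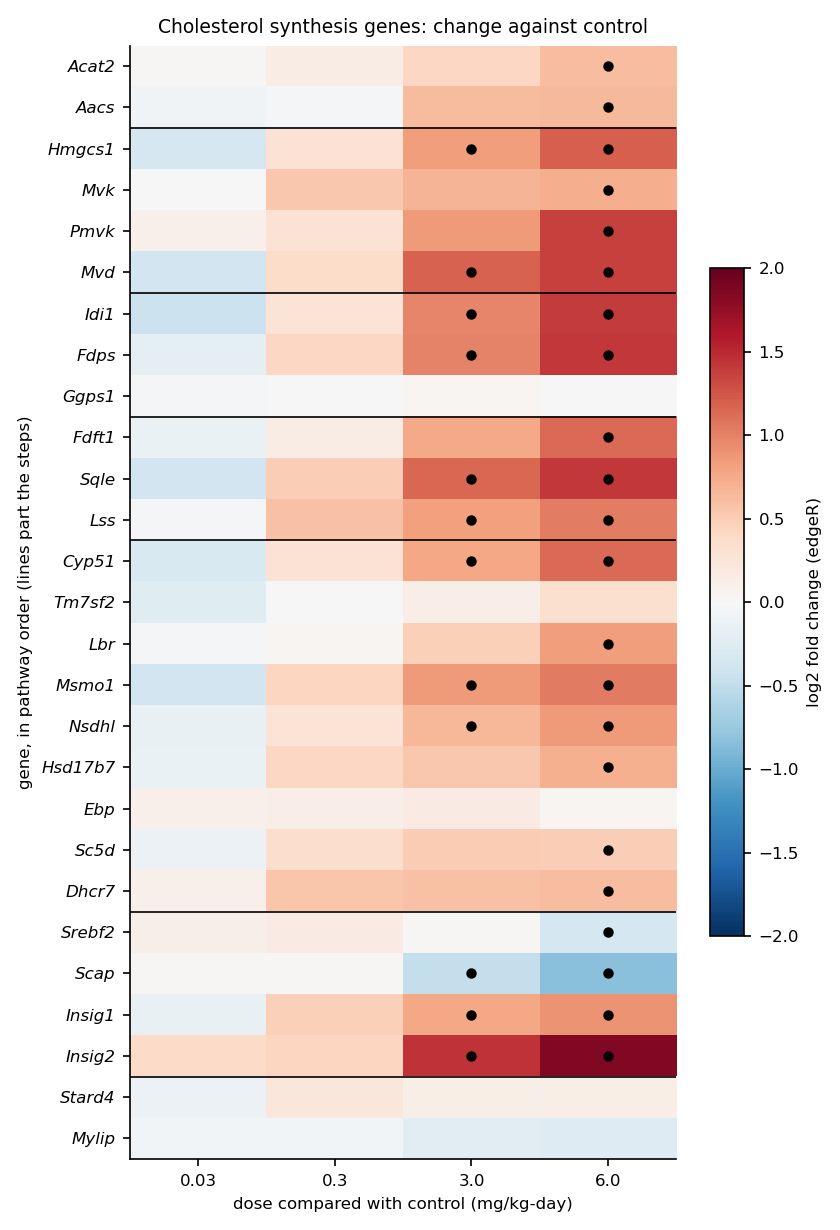
Log2 fold change of each of the 27 genes (rows, in pathway order, with lines between the steps) at the 4 doses against control (columns, in mg/kg-day); red is higher, blue is lower, and a dot marks an adjusted p under 0.05 by edgeR. At 6.0 mg/kg-day 22 rows carry a dot, and the rows of Ggps1, Tm7sf2, Ebp, Stard4 and Mylip carry none at any dose.

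**Figure D2:**
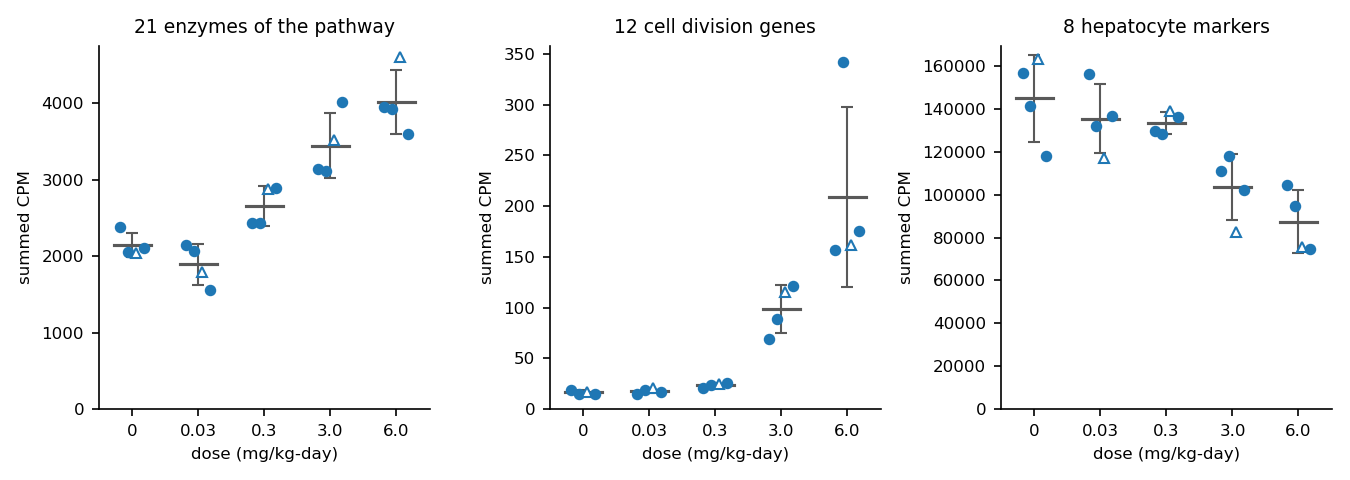
Summed CPM in each mouse (points) by dose in mg/kg-day for the 21 enzymes of the pathway, 12 cell division genes and 8 hepatocyte markers; bars are the mean and SD of 4 mice, and open triangles are the 5 libraries that stood apart within their groups. At 3.0 and at 6.0 mg/kg-day the sums of the enzymes and of the cell division genes lie above all controls, and at 6.0 that of the hepatocyte markers lies below them. Alb makes up most of the hepatocyte sum.

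Promoter sequence was at hand from RefSeq (GRCm38.p6) for 23 of the 27 genes, in 29 windows reaching from 250 bases before to 50 bases after a transcription start, and not for Fdps, Fdft1, Sqle and Stard4. The core of the sterol regulatory element, TCACNCCAC on either strand, was found in 1 of the 23, Hmgcs1, and in 1.44% of the 27025 genes with a window. The NF-Y box CCAAT was found for 20 of 23 (87.0%) and for 41.1% of all genes, and was not found for Acat2, Aacs and Scap. The Sp1 box GGGCGG was found for 20 of 23 (87.0%) and for 38.2% of all genes, and was not found for Aacs, Pmvk and Ggps1. These matches are letters in a window, not measured binding. Only exact matches were sought, so a site that differs in a letter or lies outside the window was not counted. A gene without the core here may therefore still hold a sterol regulatory element. Below are the 250 bases before the start of 6 of these genes, read 5′ to 3′ along the gene, with matches to any of the 3 motifs on either strand in capitals. Hmgcs1 (chr13:119690101-119690350, plus strand) is shown because it holds the sterol element core, whose first base lies 137 bases before the start. Mvd (chr8:122443423-122443672, minus strand), Insig2 (chr1:121332590-121332839, minus strand, 1 of 3 windows) and Scap (chr9:110333038-110333287, plus strand, 1 of 2 windows) were chosen after their values were seen, as an enzyme with a large rise, the largest rise and the largest fall. Ggps1 (chr13:14063489-14063738, minus strand) and Ebp (chrX:8193513-8193762, minus strand) are the genes without the core that had the largest adjusted p at 6.0 mg/kg-day.
Hmgcs1: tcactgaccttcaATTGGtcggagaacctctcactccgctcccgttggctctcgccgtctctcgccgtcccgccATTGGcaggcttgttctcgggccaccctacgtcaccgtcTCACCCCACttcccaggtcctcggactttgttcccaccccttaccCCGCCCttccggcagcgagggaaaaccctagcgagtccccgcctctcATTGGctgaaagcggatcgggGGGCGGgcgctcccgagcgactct
Mvd: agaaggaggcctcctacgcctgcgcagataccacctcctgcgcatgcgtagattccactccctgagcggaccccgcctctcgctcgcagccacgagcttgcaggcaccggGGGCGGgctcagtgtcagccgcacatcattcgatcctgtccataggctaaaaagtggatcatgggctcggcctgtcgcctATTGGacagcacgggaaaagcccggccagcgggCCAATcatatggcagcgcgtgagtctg
Insig2: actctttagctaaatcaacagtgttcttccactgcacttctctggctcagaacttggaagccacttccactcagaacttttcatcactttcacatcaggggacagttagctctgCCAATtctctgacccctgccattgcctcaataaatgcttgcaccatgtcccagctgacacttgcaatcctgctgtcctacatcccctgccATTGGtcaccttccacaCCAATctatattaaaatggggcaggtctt
Scap: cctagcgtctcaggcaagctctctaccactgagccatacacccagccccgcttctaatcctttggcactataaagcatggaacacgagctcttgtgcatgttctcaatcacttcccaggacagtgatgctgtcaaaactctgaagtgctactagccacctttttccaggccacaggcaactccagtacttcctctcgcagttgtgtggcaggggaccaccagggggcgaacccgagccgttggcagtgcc
Ggps1: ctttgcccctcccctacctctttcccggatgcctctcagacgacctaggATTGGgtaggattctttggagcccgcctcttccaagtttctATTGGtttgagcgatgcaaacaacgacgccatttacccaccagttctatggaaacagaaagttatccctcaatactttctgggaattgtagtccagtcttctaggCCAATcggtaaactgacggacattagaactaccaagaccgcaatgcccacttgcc
Ebp: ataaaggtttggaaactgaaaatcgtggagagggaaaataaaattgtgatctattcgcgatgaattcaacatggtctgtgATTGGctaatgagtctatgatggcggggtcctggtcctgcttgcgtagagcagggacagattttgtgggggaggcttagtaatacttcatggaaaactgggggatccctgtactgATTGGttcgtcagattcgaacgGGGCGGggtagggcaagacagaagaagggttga
In these stretches Hmgcs1 held 1 sterol element core, 3 NF-Y boxes and 2 Sp1 boxes. Mvd held 2 NF-Y boxes and 1 Sp1 box, and Insig2 held 3 NF-Y boxes. The printed stretch of Scap held 0 matches. Ggps1 and Ebp, whose levels did not pass at any dose, held 3 and 2 NF-Y boxes, and Ebp held 1 Sp1 box.

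The supply of acetoacetyl-CoA, the entry to the pathway, was higher at 6.0 mg/kg-day in both of its genes. Acat2 (chromosome 17, 12942890 to 12960747, GENCODE M21 on GRCm38), the cytosolic thiolase that joins acetyl-CoA units, was at 122, 120.2, 77.4 and 139 CPM in controls and at 180, 181, 149 and 191 CPM at 6.0. All 4 treated mice were above all 4 controls, and the change was 0.61 ± 0.18 (adjusted p = 0.0166). This call was lost without control library 3, the lowest control (adjusted p = 0.0579). The table also holds a row for Acat3, a neighbouring gene of like sequence, and the sources used here do not say how reads were divided between them. Aacs (chromosome 5, 125475814 to 125517410), which makes acetoacetyl-CoA from the ketone body acetoacetate, was at 24.4, 25.7, 20.9 and 31 CPM in controls and 37.1, 25.9, 49.7 and 48 CPM at 6.0. Library 22 lay among the controls and the other 3 mice above them. Aacs passed narrowly (change 0.65 ± 0.23, adjusted p = 0.0455), and its call was lost without library 1, 2, 3, 21, 23 or 24, with adjusted p up to 0.122. It was lost too without the libraries apart (change 0.47), with no filter on low counts and by limma-voom. At 3.0 mg/kg-day the changes of Acat2 and Aacs were 0.41 and 0.64 and did not pass (adjusted p = 0.263 and 0.148).

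All 4 measured genes of the mevalonate branch rose at 6.0 mg/kg-day. Hmgcs1 (chromosome 13, 119690379 to 119708260), the cytosolic synthase that makes HMG-CoA, was at 489.5, 365, 385 and 376 CPM in controls. It was at 569.9, 572, 779.7 and 956 CPM at 3.0 and at 909.9, 944, 1117 and 718 CPM at 6.0 mg/kg-day. Every mouse of both doses was above every control, and the changes were 0.83 ± 0.18 (adjusted p = 0.00756) and 1.19 ± 0.18 (adjusted p = 7.3e-05). Mvk (chromosome 5, 114444269 to 114460591), mevalonate kinase, went from 14.8 ± 2.16 CPM to 24.7 ± 2.32 CPM at 6.0, a change of 0.73 ± 0.20 (adjusted p = 0.0107). Its mice at 6.0 lay at 23.6, 23.4, 23.4 and 28.1 CPM and its highest control at 17.9 CPM. At 3.0 Mvk stood just outside the threshold (change 0.69, adjusted p = 0.0504) and passed without library 1 or without library 19.

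Pmvk (chromosome 3, 89454541 to 89469013), phosphomevalonate kinase, was at 32, 26.8, 14.4 and 17.6 CPM in controls and 50.4, 73.9, 38.5 and 70.6 CPM at 6.0, a 2.57-fold rise with a change of 1.36 ± 0.27 (adjusted p = 0.000932). The groups did not overlap, although the control values of Pmvk spread widely. At 3.0 its change of 0.86 did not pass (adjusted p = 0.0778), with library 19 at 26.5 CPM inside the control range. Mvd (chromosome 8, 122433601 to 122443422), the decarboxylase that yields isopentenyl diphosphate, was at 14, 12.1, 10.6 and 13.9 CPM in controls. It was at 15, 14.2, 18.4 and 17.6 CPM at 0.3, 27.9, 25.3, 28.3 and 33.7 CPM at 3.0 and 28.4, 32.6, 36.6 and 32.9 CPM at 6.0 mg/kg-day. Each of these doses lay wholly above the controls, and the changes at 3.0 and 6.0 were 1.18 ± 0.18 (adjusted p = 0.000298) and 1.37 ± 0.18 (adjusted p = 1.43e-05). Mvd at 0.3 did not pass (change 0.36, adjusted p = 0.602).

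Of the 3 isoprenoid genes, the pair on the way to sterols rose and the branch enzyme for protein prenylation did not pass. Idi1 (chromosome 13, 8885501 to 8892451), the isomerase that balances the isoprenoid building blocks, was at 181, 154, 135 and 157 CPM in controls, 263, 278, 289.8 and 402 CPM at 3.0 and 403, 451, 463 and 331 CPM at 6.0. Both doses were wholly above the controls, and the changes were 0.98 ± 0.17 (adjusted p = 0.0011) and 1.39 ± 0.17 (adjusted p = 5.62e-06). Fdps (chromosome 3, 89093588 to 89101959), farnesyl diphosphate synthase, was at 97.5, 93, 58.7 and 74.2 CPM in controls, 123, 176, 162 and 183 CPM at 3.0 and 196, 208, 238 and 216 CPM at 6.0. Its changes were 0.99 ± 0.18 (adjusted p = 0.00148) and 1.41 ± 0.18 (adjusted p = 9.4e-06). The 4 mice at 6.0 also lay above the 4 at 3.0. Ggps1 (chromosome 13, 14050659 to 14063488), which lengthens farnesyl to geranylgeranyl diphosphate, had a mean of 8 ± 1.4 CPM in controls and 8.05 ± 1.04 CPM at 6.0 (change 0.01 ± 0.15, adjusted p = 0.956). Its single libraries ran from 6.72 to 9.84 CPM over all 20 mice, and the dose groups overlapped the controls throughout.

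The genes that commit farnesyl units to sterols and close the ring, Fdft1, Sqle and Lss, all rose at 6.0 mg/kg-day. Fdft1 (chromosome 14, 63145150 to 63179578), squalene synthase, was at 88.5, 79.3, 40.9 and 74 CPM in controls and 159, 178, 119 and 166 CPM at 6.0, with a change of 1.14 ± 0.25 (adjusted p = 0.00211). At 3.0, where its mice lay at 121, 116, 91.1 and 149 CPM and above all controls, the change of 0.75 ± 0.24 did not pass (adjusted p = 0.0973). The lowest Fdft1 value of every group was in the library that stood apart, and with a term for those libraries Fdft1 passed at 3.0. Sqle (chromosome 15, 59315077 to 59331192), squalene epoxidase, was at 37.2, 31.8, 29.4 and 36.1 CPM in controls, 65.4, 56, 82.3 and 93.2 CPM at 3.0 and 75.4, 83.4, 121 and 77.5 CPM at 6.0. The changes of Sqle were 1.14 ± 0.25 (adjusted p = 0.008) and 1.41 ± 0.25 (adjusted p = 0.000362), the larger being a 2.66-fold rise. Lss (chromosome 10, 76531588 to 76557138), lanosterol synthase, was at 40.8, 36, 40.9 and 43.7 CPM in controls and 57.1, 55.9, 68.4 and 60.2 CPM at 0.3. The Lss values at 3.0 were 54.2, 63.6, 76.7 and 89.9 CPM and at 6.0 75.4, 63.3, 112 and 77 CPM, so that all 3 doses lay wholly above the controls. Its changes at 3.0 and 6.0 passed, at 0.82 ± 0.17 (adjusted p = 0.00409) and 1.02 ± 0.17 (adjusted p = 0.000126).

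**Figure D3:**
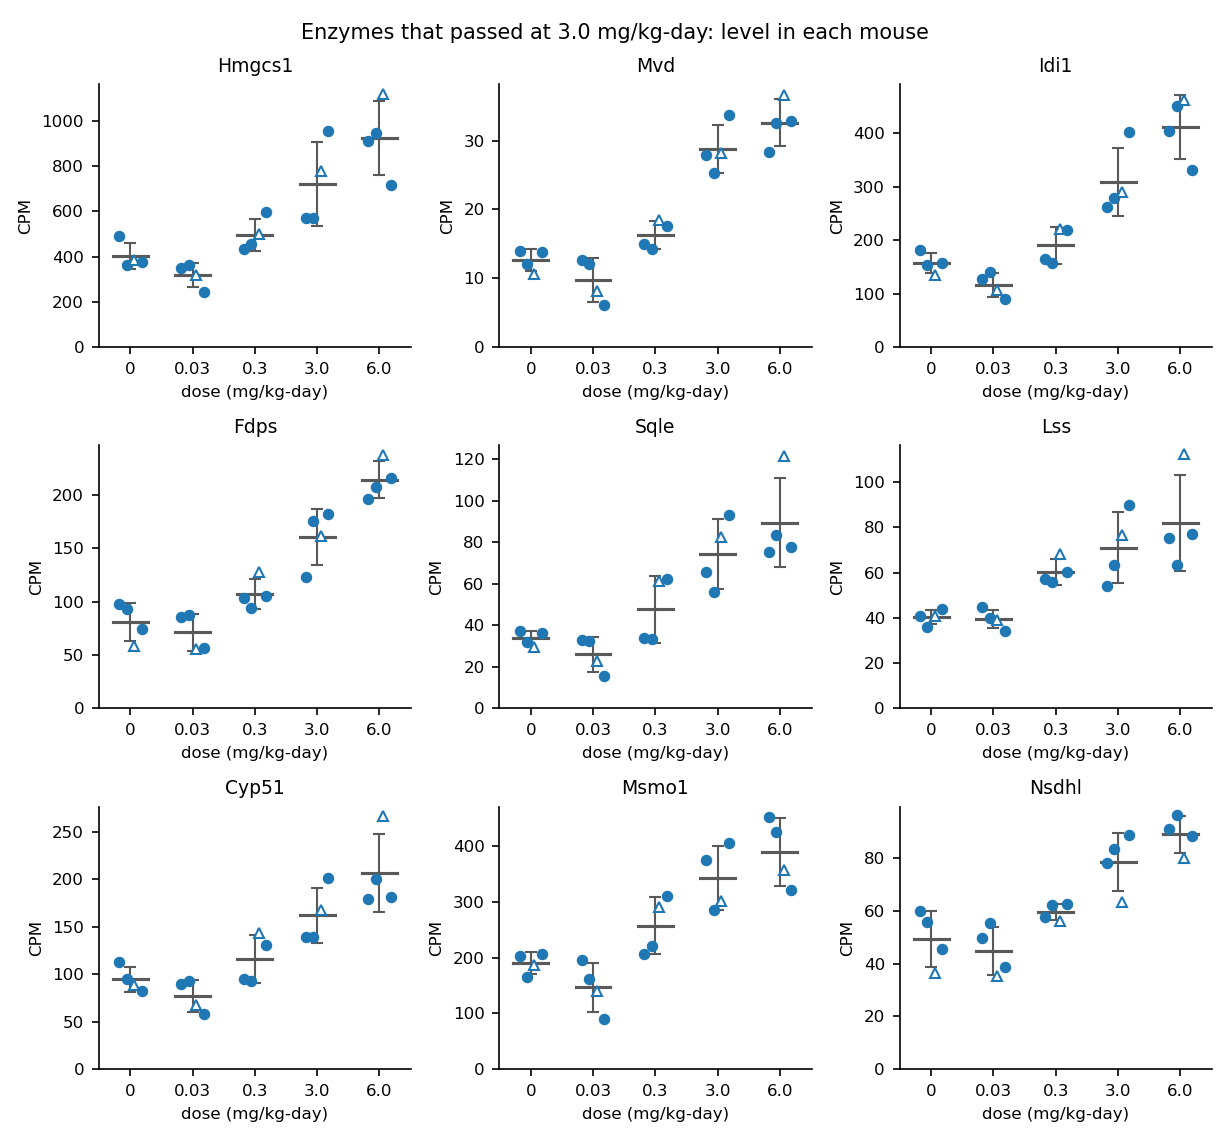
Level in each mouse (points, CPM) by dose in mg/kg-day for the 9 enzymes that passed as higher at 3.0 mg/kg-day; bars are the mean and SD of 4 mice, and open triangles are the libraries that stood apart within their groups. In all 9 panels the mice at 6.0 mg/kg-day lie above the controls, and at 0.03 mg/kg-day library 12 (the point farthest right) is the lowest for 7 of the 9.

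From lanosterol to cholesterol, 7 of 9 genes passed as higher at the top dose, beside 11.2% of all genes tested. The median change over the 9 was 0.70, beside -0.02 over all genes. Cyp51 (chromosome 5, 4081145 to 4104746), the cytochrome P450 that demethylates lanosterol, was at 113, 94.6, 88.3 and 82.3 CPM in controls, 139.7, 139.8, 167 and 202 CPM at 3.0 and 179.5, 201, 266 and 181 CPM at 6.0. Both doses were above all controls, with changes of 0.78 ± 0.19 (adjusted p = 0.0152) and 1.13 ± 0.19 (adjusted p = 0.000167). Its call at 3.0 was lost without library 4 or library 20 (adjusted p up to 0.0866). Tm7sf2 (chromosome 19, 6062821 to 6068373) and Lbr (chromosome 1, 181815335 to 181843046) encode sterol reductases of the same step, and LBR also anchors chromatin at the inner nuclear membrane. Lbr was at 8.94, 9.33, 9.02 and 9.3 CPM in controls and 14.3, 24.2, 14.5 and 12.6 CPM at 6.0, and rose by 0.84 ± 0.17 (adjusted p = 0.000852). Library 22, the highest for cell division genes, was also the highest for Lbr, and without each mouse in turn the change of Lbr ran from 0.59 to 0.95 and passed in all 8 fits. Tm7sf2 had 58.4 ± 10.6 CPM in controls and 73.3 ± 14.9 CPM at 6.0 and did not pass (change 0.33 ± 0.17, adjusted p = 0.169). The difference between this pair was tested on their log2 ratio within each mouse. That ratio of Tm7sf2 to Lbr was 2.59 ± 0.265 in controls and 2.15 ± 0.613 at 6.0, a change of -0.439 (exact two-sided permutation test, p = 0.257, adjusted over 4 doses 0.495). Unequal response of the pair was therefore not shown. With 4 mice a group the adjusted test could pass only if most of the 4 doses were wholly separate from control.

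Msmo1 (chromosome 8, 64718139 to 64733792), the oxidase that starts removal of the methyl groups, was at 203, 165, 187 and 207 CPM in controls, 376, 286, 302 and 406 CPM at 3.0 and 453, 426, 357 and 321 CPM at 6.0. Its changes were 0.85 ± 0.20 (adjusted p = 0.0114, lost without library 20 at 0.0579) and 1.03 ± 0.20 (adjusted p = 0.000631). Nsdhl (chromosome X, 72918557 to 72958514), the dehydrogenase of the same removal, went from 49.4 ± 10.6 CPM to 78.5 ± 11 CPM at 3.0 and 89 ± 6.9 CPM at 6.0. The Nsdhl changes of 0.67 ± 0.16 (adjusted p = 0.0134) and 0.85 ± 0.16 (adjusted p = 0.000501) passed, the former lost without library 3, 4 or 20 (adjusted p up to 0.0663). Hsd17b7 (chromosome 1, 169949535 to 169969241), the ketoreductase that ends it, went from 61.1 ± 9.09 to 99.5 ± 22.8 CPM at 6.0 and rose by 0.70 ± 0.19 (adjusted p = 0.0104). The 3 demethylation genes thus all passed at 6.0 mg/kg-day, with no overlap between treated and control mice.

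Of the last 3 steps, Sc5d and Dhcr7 passed at 6.0 mg/kg-day and Ebp did not. Ebp (chromosome X, 8185329 to 8193512), the sterol isomerase, was at 185, 153, 152 and 144 CPM in controls and 175, 157, 126 and 196 CPM at 6.0, with treated mice on both sides of the controls (change 0.04 ± 0.15, adjusted p = 0.857). Sc5d (chromosome 9, 42251595 to 42264256), the desaturase that acts next, was at 461, 445, 572 and 446 CPM in controls and 653, 545, 944 and 562 CPM at 6.0. Its mice at 6.0 overlapped the controls, since control library 3 was above libraries 22 and 24. Sc5d passed at 6.0 with a change of 0.49 ± 0.17 (adjusted p = 0.0413), and the call was lost without library 1, 2, 4, 21 or 23 (adjusted p up to 0.152). At 0.3 mg/kg-day, in contrast, all 4 mice (580.4, 573, 681 and 612 CPM) were above all controls, without passing (adjusted p = 0.59). Dhcr7 (chromosome 7, 143823145 to 143848410), the reductase that forms cholesterol from its dehydro precursor, showed the same layout. It was at 67.1, 58.6, 47.3 and 66.7 CPM in controls, 85, 85, 94.2 and 88.6 CPM at 0.3, 86.9, 87, 89.4 and 98.8 CPM at 3.0 and 78.6, 56.8, 139 and 92 CPM at 6.0 mg/kg-day. The mice at 0.3 and 3.0 were all above the controls, while at 6.0 library 22 was within the control range and library 23 far above it. Dhcr7 passed at 6.0 (change 0.61 ± 0.19, adjusted p = 0.0275) and not without library 2, 3 or 23, with a change of 0.34 in the lowest of these fits and adjusted p up to 0.113. Without all the libraries apart the change of Dhcr7 was 0.26 and did not pass (adjusted p = 0.188).

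The 4 regulators divided, with both Insig genes higher and Scap and Srebf2 lower at 6.0 mg/kg-day. Insig2 (chromosome 1, 121304353 to 121332589), which encodes one of the proteins that retain SCAP, was at 314, 307, 295 and 248 CPM in controls. It was at 336, 379.6, 428 and 425 CPM at 0.3, 627, 741, 825 and 972 CPM at 3.0 and 1227, 1307, 864 and 819.7 CPM at 6.0. All 3 of these doses lay wholly above the controls, and 3.0 wholly above 0.3. The changes of Insig2 were 1.44 ± 0.17 at 3.0 (adjusted p = 1.23e-05) and 1.86 ± 0.17 at 6.0 (adjusted p = 1.42e-07). Without each mouse in turn the latter ran from 1.74 to 1.96. The gene has liver transcripts from more than one start site, and the gene-level counts do not separate them. Insig1 (chromosome 5, 28071363 to 28078662), the other retention protein gene and itself a known SREBP target, was at 276, 288, 372 and 352 CPM in controls, 409, 393, 481 and 509.6 CPM at 0.3, 547, 395, 724 and 536 CPM at 3.0 and 489.5, 471, 901 and 539 CPM at 6.0. These doses too lay wholly above the controls, and library 23 was far above the other mice at 6.0. The Insig1 changes were 0.77 ± 0.20 (adjusted p = 0.0275) and 0.90 ± 0.20 (adjusted p = 0.00285). At 3.0 the Insig1 call was lost without library 1, 2, 17, 19 or 20 (adjusted p up to 0.115).

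Whether the Insig genes changed unequally was tested on the log2 ratio of Insig1 to Insig2 within each mouse. The control mice had ratios of -0.187, -0.0877, 0.336 and 0.503. Those at 3.0 had -0.196, -0.908, -0.188 and -0.857, all below the controls but some only just, and those at 6.0 had -1.33, -1.47, 0.0606 and -0.605. The mean ratio changed by -0.678 at 3.0 (exact two-sided permutation test, p = 0.0286, the smallest that 4 against 4 mice can give, adjusted over 4 doses 0.114). At 6.0 it changed by -0.976 (exact permutation p = 0.0857, adjusted 0.171), with library 23 inside the control range. At 0.03 and 0.3 the ratio changed by -0.518 and 0.0495 (exact permutation, adjusted p = 0.229 and 0.8). None of the 4 doses passed after adjustment. A dose at the smallest p could pass only if most of the 4 doses were at it too. The test could therefore not establish a shift confined to the upper doses, and no conclusion is drawn from it.

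Scap (chromosome 9, 110333288 to 110384950), the escort of SREBP2, was at 173, 160.5, 175 and 168 CPM in controls. It was at 162, 170.1, 194 and 160.2 CPM at 0.3, 129, 128, 116 and 113 CPM at 3.0 and 87.7, 68.8, 107 and 118 CPM at 6.0 mg/kg-day. Both upper doses lay wholly below the controls. Scap fell to 0.563 of its control level at 6.0, a change of -0.83 ± 0.13 (adjusted p = 8.91e-05) that passed without each mouse in turn (-0.95 to -0.70). At 3.0 the change of -0.48 ± 0.13 passed at 0.0342 but not without library 1, 2, 3, 4, 18, 19 or 20 (adjusted p up to 0.131). Srebf2 (chromosome 15, 82147181 to 82205379), which encodes SREBP2, was at 59.8, 52.1, 54.8 and 55.5 CPM in controls, 55.9, 49.6, 54.3 and 66.4 CPM at 3.0 and 43.5, 36.6, 53.8 and 40.9 CPM at 6.0. Library 23 lay within the control range and the other 3 mice below it. The change of Srebf2 at 6.0 was -0.35 ± 0.12 and passed narrowly (adjusted p = 0.0486). Its call was lost without library 1, 2, 3, 4, 21, 22 or 24, with adjusted p up to 0.168, and also with RLE factors or with no filter on low counts, while the change stayed between -0.46 and -0.27. At 3.0 Srebf2 did not pass (change 0.03 ± 0.12, adjusted p = 0.963).

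**Figure D4:**
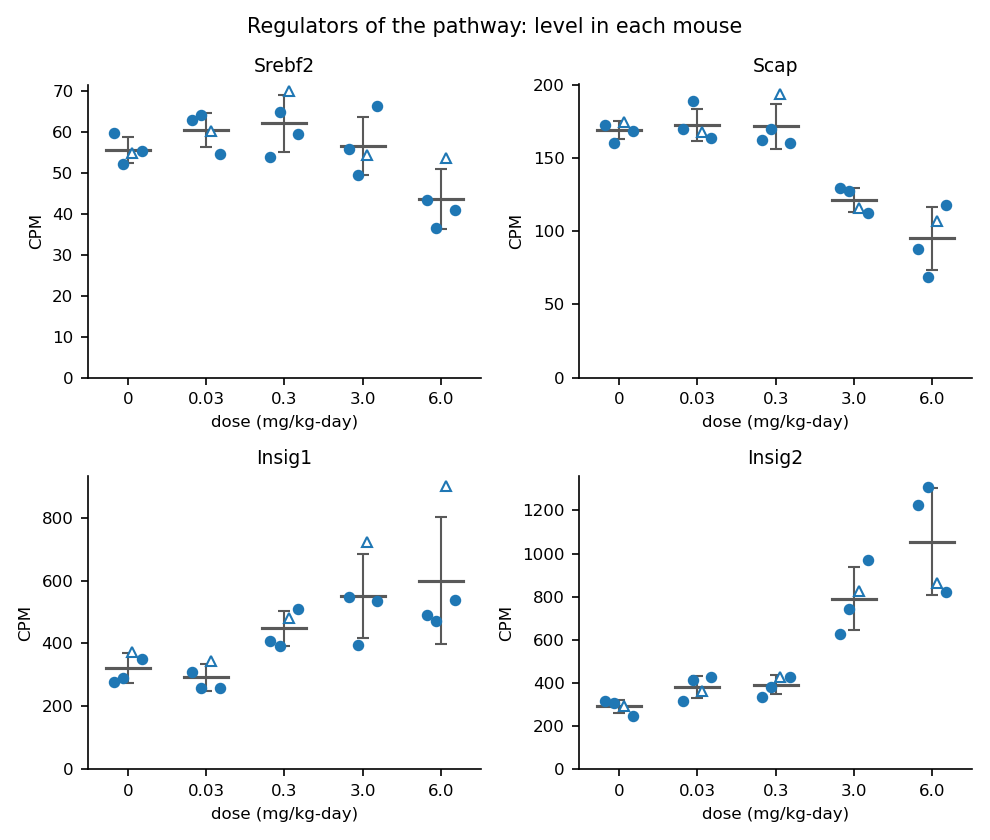
Level in each mouse (points, CPM) by dose in mg/kg-day for Srebf2, Scap, Insig1 and Insig2; bars are the mean and SD of 4 mice, and open triangles are the libraries that stood apart within their groups. Scap is below all controls and both Insig genes are above them at 3.0 and at 6.0 mg/kg-day, and Insig1 has 1 mouse at 6.0, library 23, well above the rest.

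The genes of sterol transport and receptor turnover did not pass at any dose. Stard4 (chromosome 18), a cytosolic sterol carrier, had 154 ± 21.7 CPM in controls and 169 ± 28.2 CPM at 6.0 (change 0.13 ± 0.14, adjusted p = 0.543). Its largest difference was at 0.3 mg/kg-day, 0.23 ± 0.14 (adjusted p = 0.731). Mylip (chromosome 13, 45389742 to 45412022), a ubiquitin ligase that marks lipoprotein receptors for breakdown, had 10.7 ± 1.89 CPM in controls and 8.97 ± 1.82 CPM at 6.0 (change -0.26 ± 0.15, adjusted p = 0.249). For both genes the treated mice overlapped the controls at every dose.

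At 3.0 mg/kg-day 11 of the 27 genes passed as higher and 1 as lower, where 3.18% of all genes passed as higher and 1.43% as lower. The rises were those of Insig1, Insig2 and the 9 enzymes Hmgcs1, Mvd, Idi1, Fdps, Sqle, Lss, Cyp51, Msmo1 and Nsdhl, and the fall was that of Scap. The median change was 0.67, beside -0.02 over all genes. For 15 genes all mice at 3.0 lay above all controls and for 1 below, against 5.55% and 4.95% of all genes. Besides the genes that passed, this layout held for Mvk, Fdft1, Lbr and Dhcr7, with changes of 0.69, 0.75, 0.47 and 0.59. Library 20 was the highest of its group for 14 of the 21 enzymes, and without it 7 members passed as higher and 0 as lower. With a term for the libraries that stood apart 18 passed as higher, and without those libraries 17 as higher and 0 as lower. The calls gained in both were Acat2, Mvk, Pmvk, Fdft1, Sc5d and Dhcr7.

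At 0.3 mg/kg-day 0 of the 27 genes passed in either direction by edgeR, where 0.138% of all genes passed as higher and 0.151% as lower. Of the 27, 8 had an unadjusted p under 0.05, beside 1301 of all 15197 genes, and by limma-voom 0 passed. DESeq2 called 1, Lss (edgeR change 0.58 ± 0.16, adjusted p = 0.169), as did edgeR with a term for the libraries apart. All mice lay above all controls for 6 genes, Mvd, Lss, Sc5d, Dhcr7, Insig1 and Insig2, and below them for 0, against 3.71% and 2.97% of all genes. The median change was 0.29, beside -0.02 over all genes. Of the 27 changes 23 were above 0, beside 7113 of all 15197. For some enzymes the 4 mice of this dose were not alike. Sqle was at 33.8, 33.1, 61.2 and 62 CPM, with libraries 13 and 14 at the control level and libraries 15 and 16 well above it. Cyp51, at 95.5, 93.4, 144 and 131 CPM, Msmo1, at 207, 222, 291 and 310.5 CPM, and Idi1, at 164, 156, 220.3 and 219.6 CPM, had the same 2 mice highest. Library 15 is one that stood apart and library 16 is not. The split did not hold for all enzymes. Library 15 was the highest of its group for 11 of the 21 and the lowest for 7, and library 16 for 6 and 1.

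At 0.03 mg/kg-day 0 of the 27 genes passed by edgeR, limma-voom or DESeq2, as did 0% of all genes by edgeR in either direction. An unadjusted p under 0.05 was found for 2, Idi1 (change -0.44, p = 0.0178) and Insig2 (change 0.38, p = 0.0314), with an adjusted p of 1 by edgeR for both. Over all 15197 genes, 565 had an unadjusted p under 0.05. Of the 27 changes 8 were above 0, beside 7124 of all 15197. The median was -0.12, beside -0.01 over all genes. For 1 gene, Hmgcs1, all 4 mice (351, 364, 320.1 and 245 CPM) were below all controls and for 0 genes above, against 1.44% and 1.88% of all genes. Library 12 was the lowest of its group for 10 of the 21 enzymes, among them Mvd at 6.05 CPM, Sqle at 15.5 CPM and Msmo1 at 90.7 CPM. Library 11, the one that stood apart, was the lowest for 9 others.

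The steps between treated doses were tested directly. From 0.3 to 3.0 mg/kg-day 3 of the 27 genes passed as higher and 1 as lower, where 2.41% and 0.862% of all genes did. Insig2 rose by 1.01 ± 0.17 (adjusted p = 0.00114), Mvd by 0.82 ± 0.18 (adjusted p = 0.012) and Idi1 by 0.70 ± 0.17 (adjusted p = 0.0247). Scap fell by 0.50 ± 0.13 (adjusted p = 0.0341). The rise of Insig2 alone passed without library 14 and without library 20, and the fall of Scap was lost without library 13, 14, 15, 16, 18, 19 or 20. With a term for the libraries apart 8 passed as higher, and without those libraries 7 as higher and 0 as lower. From 3.0 to 6.0 mg/kg-day 0 of the 27 passed in either direction by edgeR, limma-voom or DESeq2, where 1.03% and 1.06% of all genes did by edgeR. Of the 27, 6 had an unadjusted p under 0.05 by edgeR, beside 2306 of all 15197 genes. A change above 0 was found for 21, beside 7686 of all 15197. The largest differences in the 2 directions were those of Pmvk and Srebf2. Pmvk had 0.50 ± 0.26 (adjusted p = 0.381) and Srebf2 -0.37 ± 0.12 (adjusted p = 0.127). Srebf2 passed as lower in this step with a term for the libraries apart, without those libraries, and without library 23. A difference between the responses at 3.0 and 6.0 was not otherwise detectable gene by gene.

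Other genes of the wider pathway were described from lists chosen with earlier results of these data known, so they are not independent support. Of 10 further enzymes and known SREBP2 target genes 5 passed as higher at 6.0 and 0 as lower, beside 11.2% of all genes in each direction, with a median change of 0.58 beside -0.02 over all genes. Tmem97, a sterol-regulated membrane protein gene, rose by 0.70 ± 0.12 (adjusted p = 0.000187), from 19.5 ± 1.26 to 31.7 ± 1.97 CPM. Acss2, which makes cytosolic acetyl-CoA from acetate, rose by 0.54 ± 0.12 (adjusted p = 0.0033), and Mmab, an enzyme of vitamin B12 metabolism that shares a promoter region with Mvk, by 0.70 ± 0.17 (adjusted p = 0.00592). Acss2 and Mmab also passed at 3.0, at 0.52 and 0.67. Of 9 genes of the isoprenoid branches to dolichol, ubiquinone and prenylated proteins 0 passed by edgeR at 6.0. An unadjusted p under 0.05 was found for 2 of the 9, beside 5248 of all 15197 genes. Their smallest adjusted p was that of Srd5a3, a polyprenol reductase gene, at 0.0637 with a change of 0.35 ± 0.13, and Pdss1, Coq2 and Nus1 had changes of 0.61, 0.36 and 0.17.

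Among 12 genes of the endoplasmic reticulum machinery that processes SREBPs or degrades sterol-regulated proteins, 2 passed as higher at 6.0 and 0 as lower, with a median of 0.10. That share is near the 11.2% of all genes that passed as higher, so it is no result about this list. The genes were Ufd1 (0.73 ± 0.21, adjusted p = 0.0148) and Vcp (0.38 ± 0.13, adjusted p = 0.0451). Mbtps1, the Golgi protease that makes the first cut in SREBP2, had a change of -0.26 ± 0.11 (adjusted p = 0.0997), and the ubiquitin ligase gene Rnf139 one of 0.18 ± 0.08 (adjusted p = 0.117). Of 8 genes of the sterol-sensing receptor LXR and of cholesterol efflux 3 passed as lower and 0 as higher, beside 11.2% of all genes in each direction. Abcg5 and Abcg8, the subunits of the transporter that exports sterols into bile, fell by 0.44 ± 0.10 (adjusted p = 0.00285) and 0.78 ± 0.14 (adjusted p = 0.000317), and both also passed as lower at 3.0. Srebf1, which encodes the SREBP of fatty acid synthesis, fell by 0.72 ± 0.20 (adjusted p = 0.0147), and Abca1 had a change of -0.64 ± 0.26 that did not pass (adjusted p = 0.0798). Of 10 genes of cholesterol uptake, esterification and release 4 passed as lower and 0 as higher, beside 11.2% of all genes in each direction, with a median of -0.34. The lipoprotein receptor genes Lrp1 and Scarb1 fell by 1.19 ± 0.18 (adjusted p = 7.5e-05) and 1.10 ± 0.19 (adjusted p = 0.000302), and Lcat, which esterifies cholesterol in plasma, by 0.60 ± 0.13 (adjusted p = 0.00199). The hepatocyte markers Alb, Cps1 and Hnf4a fell at the same dose, by 0.78, 0.62 and 0.58, and their part in the falls of these lists was not tested.

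Several members share exonic bases with another annotated gene, namely 10 of 27, and for 7 of these the partner has a row of its own. Fdft1 overlaps the cathepsin gene Ctsb on the opposite strand over 774 bases, Lbr overlaps Dnah14 over 440, Lss an antisense gene over 381 and Scap an unclassified transcript over 985. Tm7sf2 overlaps Vps51 on its own strand over 532 bases. The largest overlap is that of Fdps, which shares 1124 bases with the protein-coding gene Gm43738 on its own strand. Hmgcs1 and Idi1 overlap genes on the opposite strand over 557 and 323 bases. The partners of Fdps, Hmgcs1 and Idi1 have no row. The sources used here do not say whether counting used strand, so reads from these stretches cannot be assigned to one gene with certainty. The largest rises without any such overlap were those of Insig2, Sqle, Mvd and Pmvk.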

How the data were processed

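Liver RNA of 20 mice was analysed, with 1 library per mouse run over 4 lanes. The deposited table holds gene-level values that the authors estimated per gene, read here to be expected counts. The unit was taken from the values, of which 58% were whole numbers, with totals that differed between libraries. The authors used Partek software with the GRCm38.p5 build, per the submitters' processing notes, and the sources used here name no aligner or counter. The series text speaks of targeted sequencing, while the table covers 22103 rows, of which 21 are named as dates. The members and the other lists were chosen with earlier results of these data known.

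Values were rounded. With R 4.3.3 and edgeR 4.0.16, rows were filtered (filterByExpr, 15197 kept, 6906 left out), scaled by TMM and fitted with the quasi-likelihood test in 1 model of the 20 mice and 1 mean for each group (15 residual degrees of freedom), with p adjusted by Benjamini-Hochberg over all genes kept. The SE is the size of the log2 fold change over the square root of F. The 2 within-mouse ratios used log2 of CPM plus 0.5 and exact two-sided permutation tests. Alternatives were RLE factors, no filter, a term for or removal of the 5 libraries that stood apart (chosen from these data by the first component, 42.7% of the within-group variation), only the 2 groups compared, limma 3.58.1 voom, DESeq2 1.42.0, a pseudocount of 2 CPM, and leaving out each mouse. The edgeR script was tested on simulated data.

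Totals of 13086779 to 21467012 counts and a biological coefficient of variation of 0.219 set the precision. All 27 members are named. From each other list the 4 genes of smallest adjusted p at the top dose were to be named, and some that this rule gives are not reported here. Promoters were shown for members with the sterol element core and for 2 members without it that had the largest adjusted p, and the exceptions are given with them. Mice were individual animals, so the p-values set differences between groups against the spread between mice handled in 1 study.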

Additional observations from a re-analysis of the deposited data

Results flagged for a closer look

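In 7 of the 135 sets of 4 mice (27 genes in 5 groups) 1 mouse lay far from the other 3, with a gap over the range above Dixon's 95% critical value for 4 samples, which chance gives in about 1 in 20 sets. In controls, Hmgcs1 was high in library 1, at 489.5 CPM beside 365 to 385 (gap over range 0.837), and Sc5d was high in library 3, at 572 CPM beside 445 to 461 (0.873). At 3.0 mg/kg-day Aacs was low in library 17, at 30.1 CPM beside 42 to 44 (0.853). The remaining 4 were at 6.0 mg/kg-day, each high in a different library. Mylip was at 11.7 CPM in library 21 beside 7.88 to 8.24 (0.905), and Lbr at 24.2 CPM in library 22 beside 12.6 to 14.5 (0.84). Insig1 was at 901 CPM in library 23 beside 471 to 539 (0.843), and Mvk at 28.1 CPM in library 24 beside 23.4 to 23.6 (0.962).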

How the results depend on the processing

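Over the changes of the 27 members at the doses of 3.0 mg/kg-day and above, 721 alternative values kept their direction and side of the threshold, 54 lost the call, 26 gained it and 9 changed sign, and of the counts and ratios 227 stayed close and 41 moved. A term for the libraries apart moved the members that passed to 1 higher at 0.3, 18 higher at 3.0, 8 higher from 0.3 to 3.0 and 1 lower from 3.0 to 6.0. Without those libraries there were 18 higher at 6.0, 17 higher and 0 lower at 3.0, 7 higher and 0 lower from 0.3 to 3.0, and 1 lower from 3.0 to 6.0. DESeq2 gave 1 higher at 0.3. Counts taken to have stayed close were not always equal. At 3.0 DESeq2 called 17 members, beside 12 by edgeR, and the calls gained were Dhcr7, Fdft1, Mvk, Pmvk and Sc5d. With no filter 0 were lower at 3.0, 1 at 6.0 and 0 from 0.3 to 3.0. RLE factors gave 1 lower at 6.0, and with only the 2 groups compared there were 16 higher and 1 lower at 6.0 and 6 higher from 0.3 to 3.0. Leaving out 1 mouse at a time gave 7 to 12 higher and 0 to 1 lower at 3.0 (7 without library 20), 17 to 20 higher and 1 to 2 lower at 6.0, 1 to 4 higher and 0 to 1 lower from 0.3 to 3.0, and 0 to 1 lower from 3.0 to 6.0. The changes that turned sign under this were near 0: Ggps1 at 3.0 (-0.0209 to 0.154) and 6.0 (-0.0512 to 0.124), Srebf2 at 3.0 (-0.0607 to 0.0834) and Ebp at 6.0 (-0.055 to 0.152). The cause of these moves was not tested, beyond the fewer mice left. No groups share replicate numbers, and no paired analysis was run. A fit that matches mice by their place in the numbering of each group was not run either. Low-level members such as Ggps1, Mvd, Lbr and Mylip rest on the fewest counts, with 105, 110, 121 and 141 in their lowest library.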
